A study of Mus musculus with 4 samples.

Results

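The mouse glutathione peroxidase genes *Gpx1*, *Gpx3*, *Gpx4* and *Gpx5* were followed across the cells of the epididymis and vas deferens. These 4 genes were chosen by name as the listed members of the family; the count table holds 8 *Gpx* genes among 16892 genes in all. The data are single-cell RNA-seq of 8880 cells, captured in droplets, with molecules tagged at the 3′ end and counted by unique molecular identifiers (UMIs). There were 4 groups, the caput, corpus and cauda of the epididymis and the vas deferens, each a pool of 8 tissue pieces from the same 4 male FVB/NJ mice of 10 to 12 weeks, and each pool gave 1 library. The duct was cleared of sperm and digested to loose cells before capture. The cuts were approximate, so cells near a border could fall in either library. With 1 library per region no value has a replicate, no test between regions was made, and the intervals given cover counting error only.

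Glutathione peroxidases reduce hydrogen peroxide and organic hydroperoxides at the expense of glutathione. Most mammalian members carry selenocysteine in the active site, which the cell inserts at a UGA codon, while a few have cysteine there instead. In the epididymis the luminal and cellular members of this family are best known for protecting maturing sperm, whose membranes are rich in unsaturated lipids, from oxidation. *Gpx1* encodes the cytosolic enzyme found in most tissues, *Gpx4* the enzyme that reduces lipid hydroperoxides within membranes, *Gpx3* a secreted enzyme also found in plasma, and *Gpx5* a secreted enzyme of the epididymis.

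The codon at the active site separates *Gpx5* from the others and is shown for all 4 genes, with 30 bases on each side, read from the transcripts of GENCODE on GRCm38, the same assembly as the mm10 build used by the authors. The capitals mark the active-site codon, TGA for selenocysteine and TGC for cysteine, and each run is written 5′ to 3′ on the strand of the gene.
Gpx1: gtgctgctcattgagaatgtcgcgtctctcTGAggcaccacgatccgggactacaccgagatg
Gpx3: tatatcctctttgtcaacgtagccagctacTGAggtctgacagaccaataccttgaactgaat
Gpx4: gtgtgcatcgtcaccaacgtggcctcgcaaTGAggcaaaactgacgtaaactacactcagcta
Gpx5: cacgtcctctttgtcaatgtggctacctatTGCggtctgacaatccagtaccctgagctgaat

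The *Gpx1* codon lies at chr9:108339451-108339453 on the plus strand, in exon 1 of 2, and gives residue 47 of 201. The *Gpx3* codon lies at chr11:54907256-54907258 on the plus strand, in exon 2 of 5, and gives residue 73 of 226. The *Gpx4* codon lies at chr10:80054737-80054739 on the plus strand, in exon 3 of 7, and gives residue 129 of 253 of the transcript used. The *Gpx5* codon lies at chr13:21291336-21291338 on the minus strand, in exon 2 of 5, and gives residue 73 of 221. All 4 codons are coding sequence, and the windows of *Gpx3* and *Gpx5* run on from exon 2 into exon 3. Translated from these transcripts and aligned, *Gpx3* and *Gpx5* were the closest pair of the 6, identical at 65.2% of 221 aligned residues, against 51.8% for *Gpx1* and *Gpx3* and 34.3% for *Gpx4* and *Gpx5*. This closest pair consists of the 2 secreted enzymes.

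Levels are given as UPM: for each set of cells, the gene's UMIs were added up and divided by the set's total, times 1000000, with exact 95% Poisson intervals. A UMI stands for 1 tagged 3′ end whatever the length of the mRNA, so levels of different genes are set side by side in UPM without division by length. Cells were grouped by the names in the deposited cell table, which places them in 34 populations of 7 cell types. Of 29 markers, 27 had their highest level in the type they mark; *Itga6* (basal) and *Cd52* (immune) were higher elsewhere. Libraries held 1433 to 3506 cells and 4408989 to 10744928 UMIs. The authors' removal of ambient RNA had taken 2.80% to 4.48% of the UMIs of a library. Only 43 cell barcodes occurred in 2 libraries.

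*Gpx5* was a gene of the caput principal cells, the secretory cells that line the duct. Its level there was 57990.3 UPM (interval 57631.3 to 58350.9, from 99948 UMIs), which made it the most abundant of all mRNAs in those cells at 5.80% of UMIs. The level was 3.52 UPM in the corpus (1.14 to 8.22, from 5 UMIs), 16.1 UPM in the cauda (10.7 to 23.3, from 28 UMIs) and 1.07 UPM in the vas deferens (0.347 to 2.49, from 5 UMIs). The caput stood above the next highest library, the cauda, by 3603-fold (2493 to 5423), and the corpus and vas deferens, with 5 UMIs each, lay near the level that 3 UMIs would give (2.11 and 0.641 UPM). After each cell was thinned to 1000 UMIs, *Gpx5* was found in 315 of 342 caput principal cells (92.1%, Clopper-Pearson interval 88.7% to 94.7%), with 88.2% of cells before thinning. Basal cells lie at the base of the epithelium and are not known to make *Gpx5*. In the caput, 26.2% of basal cells had a *Gpx5* UMI at the same depth (27.0% before thinning). The median depths were 844 UMIs per principal cell and 5488 per basal cell.

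*Gpx3* had its high levels further along the duct. In principal cells its level was 96.3 UPM in the caput (82.2 to 112, from 166 UMIs), 2695 UPM in the corpus (2610 to 2781, from 3823 UMIs), 5381 UPM in the cauda (5272 to 5491, from 9361 UMIs) and 360.3 UPM in the vas deferens (343 to 378, from 1687 UMIs). The cauda was 55.9-fold above the caput (47.9 to 65.5) and 2.00-fold above the corpus (1.92 to 2.07), and no 2 libraries overlapped in their counting intervals. Among all genes in principal cells it ranked 1204th by abundance in the caput, 36th in the corpus, 15th in the cauda and 376th in the vas deferens. In thinned cells a *Gpx3* UMI was found in 5.26% of caput, 76.0% of corpus, 91.2% of cauda and 15.5% of vas deferens principal cells, against 10.3%, 52.9%, 63.3% and 19.9% before thinning. The basal cells of the same libraries, at 4.10%, 6.78%, 7.65% and 1.17% when thinned (15.8%, 15.7%, 12.95% and 2.03% before), are the comparison; their median depths were 3647 to 5821 UMIs against 658 to 1286.5 in principal cells. In the caput the intervals of the 2 shares overlapped (3.15% to 8.19% and 1.98% to 7.41%), but the level was 2.34-fold higher in principal than in basal cells (1.73 to 3.22). Of the 166 UMIs 8 lay in caput cells of principal 4 and 102 in those of principal 5. Of the 1687 UMIs of the vas deferens, 599 lay in 26 cells of principal 9 and 202 in 100 cells of principal 11.

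*Gpx4*, the lipid hydroperoxide reductase, was present in principal cells of every library, and its pooled level was higher in each successive library. It stood at 316 UPM in the caput (290 to 344, from 545 UMIs), 519 UPM in the corpus (483 to 558, from 737 UMIs), 668 UPM in the cauda (630.1 to 707, from 1162 UMIs) and 892 UPM in the vas deferens (865 to 920, from 4177 UMIs). The vas deferens was 2.82-fold above the caput (2.58 to 3.09), and each step between these pooled levels was larger than the counting error. The populations within a library differed more widely and did not rise in step. Corpus cells of principal 4, 5, 6 and 7 had 21.8, 410, 254 and 835 UPM. Cauda cells of principal 8, 9, 10 and 11 had 830, 1095, 147 and 377 UPM. *Gpx1*, the general cytosolic enzyme, was below *Gpx3* and *Gpx4* in principal cells of the corpus, cauda and vas deferens and above *Gpx5* there. Its level was 124 UPM in the caput (108 to 141, from 213 UMIs), 95.2 UPM in the corpus (79.8 to 113, from 135 UMIs), 81.0 UPM in the cauda (68.2 to 95.6, from 141 UMIs) and 184 UPM in the vas deferens (172 to 197, from 862 UMIs). The vas deferens was 2.27-fold above the cauda (1.90 to 2.73), and the corpus and cauda could not be told apart (ratio 1.17, 0.920 to 1.497). This order of *Gpx1* depends on how cells are weighted: as a mean over cells of each cell's own level, the caput was highest at 154 UPM, the vas deferens stood at 134 UPM and the cauda was lowest at 116 UPM. Over 7285 genes with at least 100 UMIs in principal cells and at least 1 in each library, the median ratio of the highest to the lowest library was 2.25, so the spreads of *Gpx1* and *Gpx4* were near that of the ordinary gene while those of *Gpx3* and *Gpx5* exceeded those of 97.7% and 99.99% of them.

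**Figure D1:**
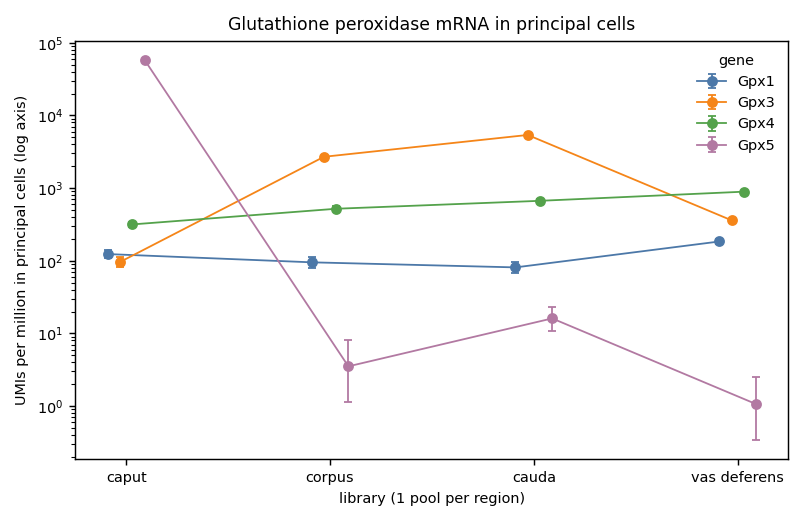
Level of *Gpx1*, *Gpx3*, *Gpx4* and *Gpx5* in principal cells of each library in UPM on a log axis, with 95% counting intervals as bars. *Gpx5* is at 57990.3 in the caput and 3.52 in the corpus, *Gpx3* at 96.3 and 2695, and *Gpx1* and *Gpx4* stay between 81.0 and 892.

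A gene was called restricted to 1 library when principal cells of that library held at least 20 UMIs and at least 4 times the level of each other library, with counts under 3 UMIs raised to 3. By this rule 603 of 8773 genes that could have passed were called (6.87%), and of the 4 members 1 was, *Gpx5* in the caput. *Gpx3* missed it because the cauda and corpus differed by 2.00-fold. A gene was called enriched in 1 cell type by the same thresholds between the 7 types, with each type's level the mean over its libraries; 1216 of 8761 genes were called (13.9%), among them *Gpx5* and *Gpx3*, both in principal cells. *Gpx5* averaged 14502.7 UPM in principal cells and 233 UPM in basal cells, the next type, a 62.1-fold difference. *Gpx3* averaged 2133 UPM in principal cells and 281 UPM in clear cells, a 7.59-fold difference, and its call rests on the cauda: without that library the ratio was 3.56, to stromal cells, below the threshold. Likewise *Gpx5* lost its call without the caput, at 6.90 UPM in principal and 2.34 UPM in basal cells. *Gpx4* was highest in clear cells and *Gpx1* in muscle cells, neither by 4-fold. Without the cauda, *Gpx1* was highest in basal cells at 889 UPM, with muscle at 776 UPM in place of 1306 UPM. This muscle mean gives the corpus (503 UPM, 5 UMIs in 7 cells) the same weight as the vas deferens. In the vas deferens alone, muscle had 1048 UPM and basal cells 633 UPM.

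Principal cells fall into 15 populations. They carry codes in the deposited table, and the study's numbers along the duct, used here, were assigned to the codes by matching numbers of cells, which was not checked otherwise. By library, all cells of principal 1 to 3 came from the caput, principal 4 and 5 held caput and corpus cells, most cells of 6 and 7 came from the corpus and most of 8 to 11 from the cauda, and 98.8% or more of each of 12 to 15 from the vas deferens. Since the clustering that made these populations used the same counts, differences between them are given as descriptions. *Gpx5* reached 97565.5 UPM in principal 3, where the 4 genes together took 9.78% of UMIs. The level was 71702 UPM for principal 1 and 54421 UPM for principal 2, then 3452 UPM for principal 4 and 1651 UPM for principal 5, and lay between 0 and 36.8 UPM in principal 6 to 15. Each of these first 5 populations stood above the next in order by more than the counting error. In thinned cells of principal 1, 2 and 3 every cell held a *Gpx5* UMI, with medians of 67.5, 48 and 95 UMIs of 1000 (82, 168 and 45 cells); before thinning 97.9%, 93.8% and 98.7% of cells had one.

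*Gpx3* ran the other way across the same populations. Its level was 9.80, 49.8 and 42.1 UPM across principal 1 to 3, then 869 UPM for principal 4 and 989 UPM for principal 5, which did not differ beyond counting error. From principal 6 to 11 it was 2591, 3822, 5615, 4432, 5481 and 4531 UPM in order. In principal 12 to 15 it was back at 84.3 to 253 UPM. The highest pair, principal 8 and principal 10, could not be told apart (ratio 1.02, 0.972 to 1.08). In principal 10 and 11, which span a border, cauda cells held more *Gpx3* than vas deferens cells: 5653 UPM in 141 cauda cells and 1902 UPM in 100 vas deferens cells of principal 11, and 5611 UPM in 166 and 1795 UPM in 16 cells of principal 10. In principal 9 the same 2 libraries gave 4380.5 UPM and 4547 UPM, within each other's counting intervals.

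**Figure D2:**
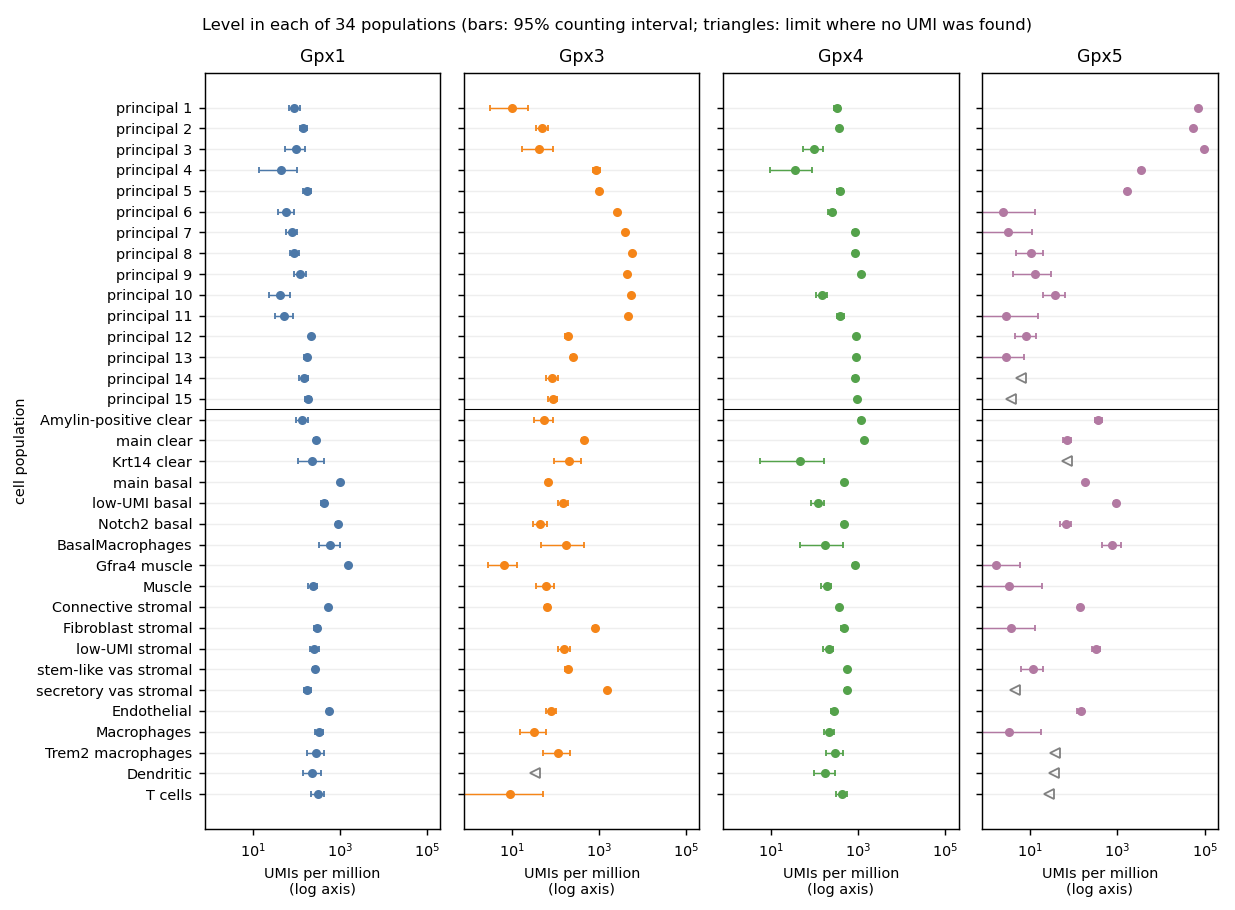
Level of each gene in UPM on a log axis in each of 34 populations, principal populations above the line and all others below it, with 95% counting intervals. *Gpx5* is high in principal 1 to 5 and *Gpx3* in principal 4 to 11 and secretory vas stromal cells. *Gpx4* is high in main and amylin-positive clear cells, *Gfra4* muscle and principal 7 to 9 and 12 to 15. *Gpx1* is high in *Gfra4* muscle and in main and *Notch2* basal cells. Open triangles mark the limit that 3 UMIs would give where no UMI was found.

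The share of each gene in the summed UMIs of the 4 shows the exchange in 1 measure. *Gpx5* made up 99.4%, 99.0% and 99.8% of them in principal 1, 2 and 3, 78.5% in principal 4 and 51.6% in principal 5. *Gpx3* made up 77.1% to 96.0% in principal 6 to 11. *Gpx4* led in principal 12 to 15 with 67.6% to 78.7%. By this measure *Gpx5* led 5, *Gpx3* 6 and *Gpx4* 4 of the 15 principal populations and *Gpx1* none, while over all 34 populations *Gpx1* led 9. In principal 4 and 5 the *Gpx5* lead rested on caput cells. The corpus cells of these populations held 1 *Gpx5* UMI each, against 92 and 377 UMIs of *Gpx3*. The mRNAs that encode selenocysteine, all but *Gpx5*, came to 536 UPM in principal cells of the caput and 0.916% of the sum there, against 3309 UPM in the corpus.

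**Figure D3:**
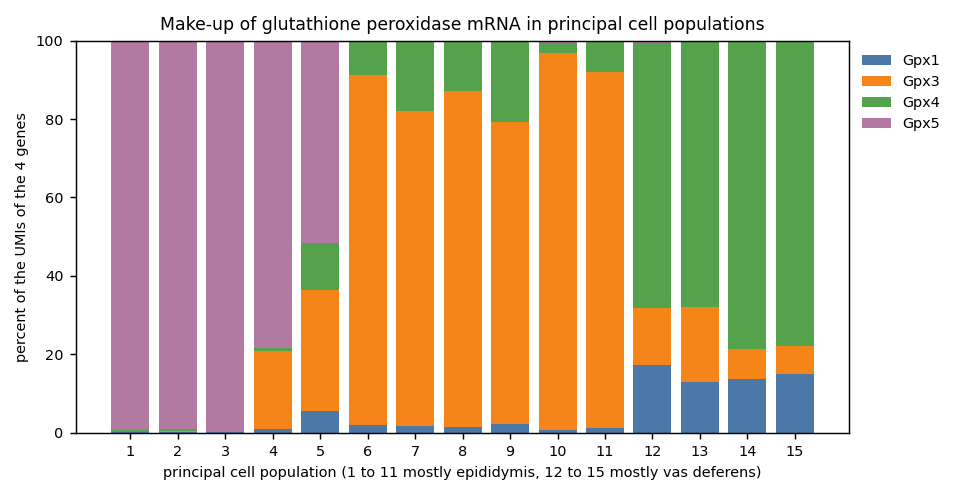
Percent of the summed UMIs of *Gpx1*, *Gpx3*, *Gpx4* and *Gpx5* that each gene takes in principal populations 1 to 15, as stacked bars that reach 100. *Gpx5* fills the first 3 bars to 99.0% or more, *Gpx3* takes 77.1% to 96.0% of bars 6 to 11, and *Gpx4* takes 67.6% to 78.7% of bars 12 to 15.

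Principal 4 and principal 5 hold cells of both the caput and the corpus, and the levels of the secreted pair differed between the libraries within each. In principal 5, *Gpx5* stood at 4456 UPM in 67 caput cells and 3.28 UPM in 172 corpus cells. In principal 4 it stood at 17158 UPM in 19 caput cells and 10.9 UPM in 55 corpus cells. The caput level came from few cells. In 15 of the 67 caput cells of principal 5 *Gpx5* took at least 1% of the cell's UMIs (1.04% to 5.26%), and these cells held 86.0% of the gene's UMIs; in principal 4 it was 5 of 19 cells (2.11% to 6.76%) with 97.2%. The remaining caput cells, which were separated by their own *Gpx5* counts, held 112 *Gpx5* UMIs in principal 5 (785 UPM) and 11 in principal 4 (767 UPM). In all, 21 of the 67 and 6 of the 19 caput cells had a *Gpx5* UMI, so few of the remaining cells held one. Because the split itself capped these levels, they cannot be set against the 741 to 927 UPM found in caput clear, stromal, endothelial and basal cells. *Gpx3* was lower in caput than in corpus cells of the same population, at 569 UPM against 1235 UPM in principal 5 and at 347 UPM against 1001 UPM in principal 4.

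Joint detection was rare where the ranges of the secreted pair met. Of 105 principal 5 cells thinned to 1000 UMIs, 48 held only *Gpx3*, 13 only *Gpx5*, 2 both (1.90%, Clopper-Pearson interval 0.232% to 6.71%) and 42 neither. The product of the separate shares would give 6.80%, but all 15 cells with *Gpx5* were caput cells, while *Gpx3* was found in 10 of 36 caput and 40 of 69 corpus cells, so the library enters this number. In principal 4, 0 of 40 cells held both (Clopper-Pearson interval up to 8.81%).

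Outside principal cells, the 741 to 927 UPM of *Gpx5* in caput clear, stromal, endothelial and basal cells was 1.28% to 1.60% of the caput principal level. The 5 other caput-restricted genes with the most UMIs in caput principal cells, *Defb20*, *Spag11b*, *Defb47*, *Lcn8* and *Cst11*, which encode secreted proteins, stood at 0.564% to 2.30% of their own principal levels in the same 4 types. In clear, basal and endothelial cells the *Gpx5* value lay within the range of the 5 other genes. In stromal cells it was above all 5, at 1.314% against 1.301% for *Spag11b*, with overlapping counting intervals. Whether the *Gpx5* UMIs of these types come from free RNA was not tested. Low-UMI basal cells of the caput stood higher, at 2611 UPM. In 11 caput immune cells *Gpx5* had 0 UMIs of 30602 (3 UMIs would give 98.0 UPM), as had *Defb47* and *Cst11*. There *Defb20* stood at 1.43%, *Lcn8* at 1.68% and *Spag11b* at 3.38% of their principal levels. In the other libraries *Gpx5* was at 0 to 6.27 UPM in each cell type but principal cells. Of all 102264 *Gpx5* UMIs, 97.8% came from principal cells, and 102212 lay in the caput library.

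**Figure D4:**
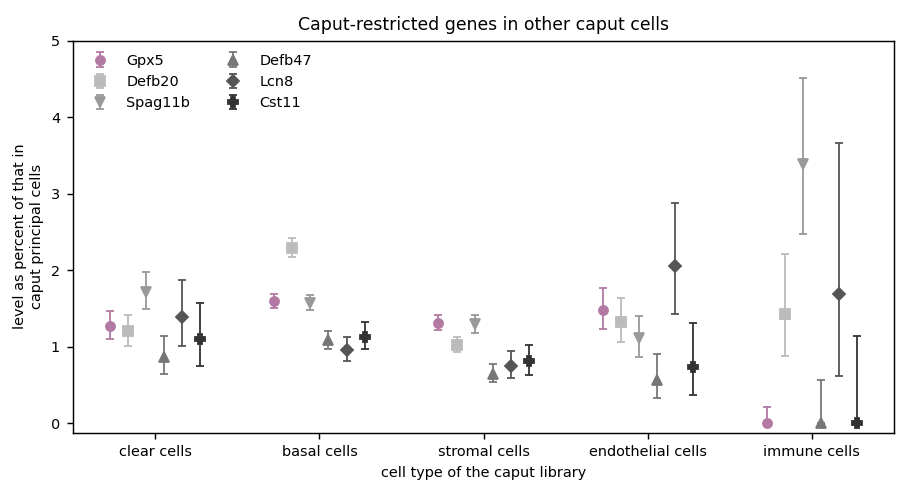
Level of *Gpx5* and of 5 other caput-restricted genes in caput cells that are not principal cells, as a percent of each gene's level in caput principal cells, with 95% counting intervals. *Gpx5* stands at 1.28% to 1.60% in clear, basal, stromal and endothelial cells, within the range of the other genes except in stromal cells, where it is slightly above them. In immune cells it is at 0, as are *Defb47* and *Cst11*.

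*Gpx3* outside principal cells was not even between types. Clear cells, which acidify the lumen, had 26.3 UPM in the caput, 169 UPM in the corpus, 661 UPM in the cauda and 267 UPM in the vas deferens. The cauda was highest and the caput lowest, as in principal cells. As pooled, clear cells of the vas deferens stood above those of the corpus (ratio 1.58, 1.05 to 2.34), the reverse of principal cells. But the corpus pool held 39 amylin-positive cells at 84.6 UPM. Within main clear cells the intervals overlapped, at 223 UPM in the corpus (170 to 289) and 285 UPM in the vas deferens (204 to 389). In the cauda the clear cell level was 12.3% of the principal level, where basal, muscle, stromal, endothelial and immune cells had 0.526% to 2.63%. In the vas deferens, stromal cells had 480 UPM against 360.3 UPM in principal cells, and 1002 of their 1204 *Gpx3* UMIs lay in secretory vas stromal cells. In the caput, stromal cells had 158 UPM against 96.3 UPM in principal cells, but 69 of their 132 UMIs lay in 9 cells of the fibroblast and stem-like vas stromal populations, and the other 250 cells had 76.8 UPM (59.0 to 98.3). Populations named as stroma by the study differed widely: *Gpx3* stood at 1539 UPM in secretory vas stromal cells, at 787 UPM in fibroblast stromal cells and at 64.6 UPM in connective stromal cells. In thinned cells a *Gpx3* UMI was found in 54.1% of secretory vas stromal cells and 4.89% of connective stromal cells, against 56.6% and 8.82% before thinning, at median depths of 3065.5 and 3821 UMIs. The largest part of the fibroblast stromal UMIs came from the corpus, with 250 in 36 cells (2515 UPM). There were 81 in 74 cauda cells (253 UPM) and 54 in 39 vas deferens cells (441 UPM). The 4 caput cells held 50 UMIs (4770 UPM), of which 32 lay in a single cell.

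*Gpx1* was lowest in principal cells and highest in muscle and basal cells. In muscle, which wraps the duct, it stood at 2367 UPM in the cauda (2181 to 2564) and 1048 UPM in the vas deferens (992 to 1106); the corpus gave 7 cells and the caput none. In basal cells it stood at 947 UPM in the caput, 1087 UPM in the corpus, 979 UPM in the cauda and 633 UPM in the vas deferens. Basal cells thus exceeded principal cells in each of the 4 libraries, with principal to basal ratios of 0.131, 0.0875, 0.0828 and 0.291 in that order. By population the order was *Gfra4* muscle at 1517 UPM, main basal at 982 UPM and *Notch2* basal at 890 UPM, each above the next by more than the counting error, and the lowest was principal 10 at 42.5 UPM. The other muscle population, with a median of 1080.5 UMIs per cell, had 241 UPM. Of all *Gpx1* UMIs 45.3% came from basal, 21.3% from stromal, 15.0% from muscle and 10.5% from principal cells.

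*Gpx4* was highest in clear cells. These held 1151 UPM in the caput (1025 to 1287), 1103 UPM in the corpus (1010 to 1202), 1547 UPM in the cauda (1448 to 1652) and 1135 UPM in the vas deferens (971 to 1319), so that the cauda lay above the other 3, whose intervals overlapped. In the order of populations, 3 neighbouring pairs were apart beyond counting error for *Gpx4* (30 were not), 4 for *Gpx1* (29 were not), 8 for *Gpx3* (24 were not) and 9 for *Gpx5* (17 were not), pairs at 0 left out. By population, main clear cells led with 1390 UPM, followed by principal 9 with 1184 UPM and amylin-positive clear cells with 1129 UPM. When each cell was given equal weight, principal 9 came first with 1204 UPM against 1140 UPM in main clear cells. Basal cells changed less along the duct than principal cells, at 372 UPM in the caput, 466 UPM in the corpus, 410 UPM in the cauda and 515 UPM in the vas deferens. Stromal cells held 227 UPM in the caput, 188 UPM in the corpus, 476 UPM in the cauda and 634 UPM in the vas deferens, so that, as in principal cells, the 2 distal libraries were above the 2 proximal ones.

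**Figure D5:**
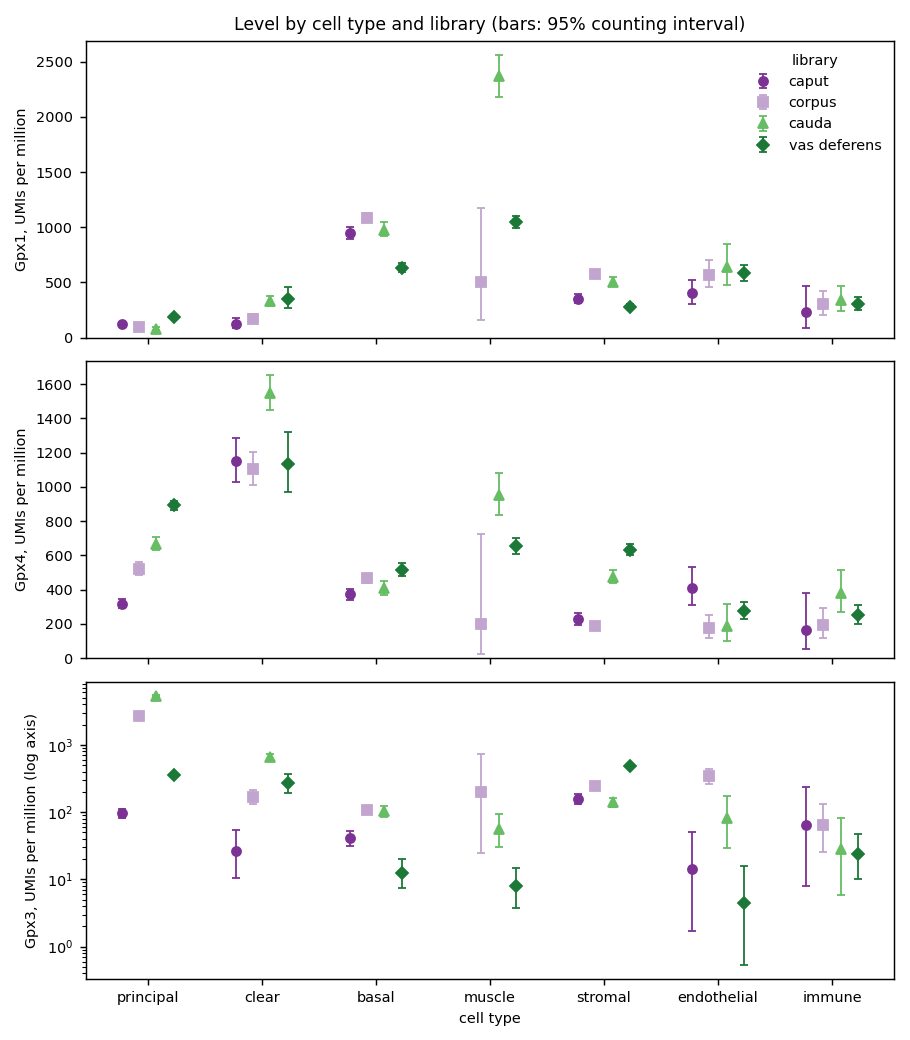
Level of *Gpx1*, *Gpx4* and *Gpx3* in UPM by cell type and library, with 95% counting intervals; *Gpx3* is on a log axis. *Gpx1* is highest in cauda muscle at 2367 and 81.0 to 184 in principal cells, *Gpx4* is above 1000 in clear cells of all libraries, and *Gpx3* is highest in corpus and cauda principal cells at 2695 and 5381.

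The lowest *Gpx4* levels were found in principal 4 (34.8 UPM), *Krt14* clear cells (45.8 UPM), principal 3 (96.2 UPM), low-UMI basal cells (118 UPM) and principal 10 (147 UPM). Their shares of UMIs from 81 genes for ribosomal proteins were 2.19%, 2.74%, 6.06%, 6.83% and 5.19%, where principal 9 had 21.6% and main clear cells 15.1%, but dendritic cells had 38.3% with 173 UPM of *Gpx4*. Over the 15 principal populations the log2 level of *Gpx4* and the ribosomal share had a Pearson r of 0.84 (Spearman 0.73), and for *Gpx1* these were 0.69 and 0.59, but for *Gpx3* 0.09 and 0.14. Over all 34 populations they were lower, 0.38 and 0.42 for *Gpx4* and 0.40 and 0.46 for *Gpx1*. The populations share libraries and depth, and the part of the ribosomal share in these levels was not tested. By library, principal cells of the caput and corpus had 11.6% and 11.5% ribosomal UMIs and those of the cauda and vas deferens 15.0% each, beside *Gpx4* levels of 316, 519, 668 and 892 UPM.

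The annotation sets limits on *Gpx4*. Of the 451 windows of 50 bases in the last 500 bases of its transcript, 401 (88.9%) also occur in the pseudogene *Gpx4-ps2*, and the authors left out reads that aligned to several places, so that its level against other genes is uncertain. No such window was found for *Gpx1*, *Gpx3* or *Gpx5*. *Gpx3* overlaps or lies within 1000 bases of *Tnip1* and *Gpx4* of *Sbno2*, both on the opposite strand.

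Among the 4 other glutathione peroxidases, *Gpx6*, which lies beside *Gpx5* on chromosome 13, was also restricted to the caput. It had 51 UMIs in caput principal cells (29.6 UPM) and 0 in principal cells of each other library. *Gpx8*, an enzyme of the endoplasmic reticulum, stood at 98.6 UPM in the caput, 128 UPM in the corpus, 19.5 UPM in the cauda and 3.84 UPM in the vas deferens. *Gpx7*, of the same compartment, stood at 24.9 UPM in the caput and 3.45 to 6.41 UPM in the other libraries, and *Gpx2* had 2 UMIs. Both *Gpx7* and *Gpx8* had their highest mean level in stromal cells, at 31.3 UPM and 107 UPM.

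The other genes of glutathione and peroxide metabolism were taken as 68 genes in 10 lists, of which the first holds these 4 other peroxidases. Of the 57 that could have passed, 4 were restricted to 1 library in principal cells (7.02%, against 6.87% of all genes), and of 53 that could have passed, 6 were enriched in 1 cell type (11.3%, against 13.9% of all genes), shares near those of the whole table. The restricted genes beside *Gpx6* were *Ggt7* in the caput and *Idh1* and *Prdx5* in the vas deferens. *Idh1*, a cytosolic source of NADPH, stood at 15.1 UPM in the caput, 9.87 UPM in the corpus, 35.1 UPM in the cauda and 923 UPM in the vas deferens. *Prdx5*, a peroxiredoxin, stood at 129, 235, 203 and 1298 UPM in the same order. Both were highest in the vas deferens, as was *Gpx4* in principal cells. Of the 8773 genes of the whole table that could have passed, 36.2% had their highest principal cell level there.

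*Idh1*, *Ggt1* and *Lrp2* were enriched in principal cells. *Ggt1*, the gamma-glutamyl transferase that cleaves extracellular glutathione, stood at 114 UPM in the caput, 59.2 UPM in the corpus, 16.1 UPM in the cauda and 6.62 UPM in the vas deferens. *Lrp2*, an endocytic receptor that binds selenoprotein P, stood at 1.16, 173, 276 and 23.5 UPM in the same order. Its highest library, the cauda, was that of *Gpx3* and of 10.6% of the 8773 genes that could have passed the library rule. *Glrx* was enriched in basal cells (672 UPM), *Msrb1* in muscle (1182 UPM) and *Dio2* in stromal cells (62.4 UPM). None of the genes for glutathione synthesis, the thioredoxin system, superoxide dismutases or selenocysteine incorporation met either rule. The most abundant of each in principal cells were *Slc3a2* (289 UPM), *Txn1* (535 UPM), *Sod2* (288 UPM) and *Secisbp2l* (99.1 UPM), and of the remaining lists *Prdx1* (1556 UPM), *Selk* (469 UPM) and *Ggct* (36.3 UPM).

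The genes most like each member over the 34 populations, by Pearson r of log2(UPM + 10) among 6536 genes, were of different kinds. For *Gpx5* they were *Defb41* (r = 0.94), *Defb20*, *Slc38a5*, *Defb47* and *Cst11* (r = 0.92), and 7 genes exceeded 0.9. For *Gpx3* they were *Defb11* (r = 0.83), *Defb28*, *Defb2*, *Ltf* and *Defb10* (r = 0.80). For *Gpx4* they were *Tomm6* (r = 0.89), *Chchd2*, *Uqcrh*, *Swi5* and *Atp5l* (r = 0.84), of which *Uqcrh* and *Atp5l* encode parts of the respiratory chain and ATP synthase. For *Gpx1* they were *Zyx* (r = 0.83), *Cfl1*, *Actb*, *Bnip2* and *Srsf3* (r = 0.78), of which *Zyx*, *Cfl1* and *Actb* belong to the actin cytoskeleton. The populations share libraries and differ in depth, so these are descriptions. Between members over the 34 populations, r was -0.58 for *Gpx1* and *Gpx3*, and between -0.35 and 0.13 for the other 5 pairs, with -0.22 for *Gpx3* and *Gpx5*. Over the 15 principal populations r was 0.65 for *Gpx1* and *Gpx4*, -0.60 for *Gpx4* and *Gpx5*, -0.57 for *Gpx3* and *Gpx5* and -0.51 for *Gpx1* and *Gpx3*.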

How the data were processed

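The 4 single-cell 3′ libraries of the 10x V2 chemistry, 1 per region, were analysed. The authors deposited UMI counts per gene and cell: reads were demultiplexed with bcl2fastq, aligned to mm10 with HISAT2 2.0.4 (the submitters' processing notes), counted on RefSeq genes with ESAT with multi-mapped reads ignored, corrected for UMI errors, filtered on total UMIs per cell, and cleared of ambient RNA per library with a modified SoupX. That removal lies in the counts and can lower genes that are abundant in the library.

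All 8880 cells were kept, with the authors' populations; the principal populations carry codes in the cell table and were given the study's numbers by matching numbers of cells. Called doublets (178 cells, 2.00%, a number set by an assumed rate of 0.8% per 1000 cells) were left in and removed as an alternative. UMIs were summed over groups of cells. Intervals are 95% exact Poisson for levels, exact conditional for ratios and Clopper-Pearson for shares; a floor of 3 UMIs stood for lower counts. Thinning to 1000 UMIs per cell used a fixed seed. Genes that could pass a rule had at least 20 UMIs where their level was highest and a level there of 4 times the floor elsewhere. The genes named are the 4 members, the other glutathione peroxidases, the restricted, enriched and most abundant genes of the other lists, the 5 genes most like each member and the 5 caput genes set beside *Gpx5*. The members, lists and rules were chosen with earlier results of these data known; the split of principal 4 and 5 cells by their own *Gpx5* counts, the ribosomal share, the split of caput stromal cells and the share of the principal *Gpx3* level in other types were added after the values were seen. The rules were tested on simulated data. Alternatives covered thresholds, cell depth, weights, denominators, doublets and libraries left out. Coordinates and sequences come from GENCODE M21 on GRCm38. The computation used Python 3.11.15 and its libraries scikit-learn 1.9.0, Biopython 1.88, pandas 2.3.3, numpy 2.4.6, matplotlib 3.10.9 and scipy 1.17.1.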

Additional observations from a re-analysis of the deposited data

Results flagged for a closer look

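*Gpx4* differed in the direction of its contrast between principal and basal cells. The log2 ratio of principal over basal level was -0.23 in the caput (ratio 0.850, 0.752 to 0.960) and 0.79 in the vas deferens (ratio 1.73, 1.60 to 1.88), a difference of 1.03 between the libraries, with the corpus at 0.16 and the cauda at 0.70. Each region is 1 library, so the difference was not tested beyond counting error. Between the same libraries the ribosomal share of UMIs was 11.6% and 15.0% in principal cells and 21.4% and 20.8% in basal cells, and its part was not tested.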

How the results depend on the processing

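Of 66 alternatives over 13 values and counts, 45 stayed within the counting interval (or within 1.5 times a count) and 21 moved. A reversal could be called only for the *Gpx5* and *Gpx3* ratios between libraries, and 0 were. The other values could only stay or move, also where the highest library or population changed. With each cell's own level averaged, cauda over caput was 38.9 for *Gpx3*, vas deferens over caput 3.46 for *Gpx4*, and for *Gpx1* the highest library became the caput (1.33 over the cauda); the highest population levels were 1388 UPM for *Gpx1*, 4392 for *Gpx3* and 1204 for *Gpx4* (principal 9 in place of main clear). Without the 20 most abundant genes of a group in the denominator they were 1943 UPM (*Gpx1*), 10348.8 (*Gpx3*, principal 10 in place of principal 8), 1660 (*Gpx4*, principal 9) and 173410 (*Gpx5*), as a smaller denominator must give. In the main library of the population they were 1278 UPM for *Gpx1* and 1584 for *Gpx4*, and in cells with at least 1000 UMIs 6018 for *Gpx3*. A fold threshold of 2 called 1878 restricted and 3005 enriched genes, and 8 called 280 and 619, with 1 member enriched at 8 (*Gpx5*). Leaving out each library gave 827 to 1205 enriched genes and 1 to 2 enriched members. Of the 105 thinned principal 5 cells, 0 held at least 2 UMIs of both *Gpx3* and *Gpx5* (0%). No paired analysis was possible because each group is 1 library. Depth limits *Gpx5* outside the caput, where principal cells gave 5 to 28 UMIs, and *Gpx1* in principal populations, where 5 to 15 UMIs set the lowest levels.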

Other observations

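*Gpx3* was also found in endothelial cells of the corpus, at 341 UPM (257 to 442, from 56 UMIs in 39 cells) or 12.6% of the principal level there, against 14.1 UPM in the caput, 80.3 UPM in the cauda and 4.40 UPM in the vas deferens, which rested on 2 to 6 UMIs each. The other corpus types stood at 9.14% (stromal), 7.47% (muscle, 2 UMIs), 6.28% (clear), 4.00% (basal) and 2.38% (immune) of the principal level. Low-UMI basal cells of the caput held more *Gpx5* than main basal cells of the caput, 2611 UPM in 94 cells against 766 UPM in 189 cells, at a median of 1047.5 UMIs per cell against 6325. Over the 34 populations *Gpx1* was at 100 UPM or more in 26, *Gpx4* in 31, *Gpx3* in 19 and *Gpx5* in 12.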
